A study of Sus scrofa with 9 samples.

Results

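The acrosome is a large secretory vesicle that caps the nucleus of the sperm head. It is assembled from the Golgi apparatus, beginning in late meiosis and going on through the round spermatid stage. At fertilization it releases proteases and other matrix proteins that act at the zona pellucida, the coat of the egg, and its membranes carry proteins needed for binding and passing that coat. The transcripts of 10 genes for acrosome matrix and membrane proteins were followed through pig spermatogenesis. They were chosen by symbol, all 10 listed symbols were found among 22342 gene identifiers, and all 10 were among the 16802 genes that passed the filter on low counts.

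Total RNA of testis cells from pig (Sus scrofa) was sequenced at 3 stages, with 3 libraries each. Spermatogonia are mitotic germ cells (libraries 1, 2 and 3), spermatocytes are cells in meiosis (libraries 2, 3 and 4), and round spermatids are haploid cells before elongation (libraries 1, 2 and 3). The labels name no genotype, treatment, breed, age or way of sorting. They speak of biological samples but tie none to an animal, and a p-value here can only reflect how far libraries of a label differ, part of which may be technical. The stated aim was to study how expression and chromatin change during spermatogenesis. In libraries of mixed cells, fewer cells of a type and less RNA per cell cannot be told apart.

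Libraries held 47963279 to 64639201 estimated counts. Levels are given as CPM, counts scaled to library size, or as TPM, which are scaled to gene length as well. Across genes, which are no replicates, log2 CPM correlated at r = 0.997 among the spermatogonia libraries, at 0.982 to 0.989 among spermatocytes and at 0.979 to 0.993 among round spermatids. The labels fitted the markers in part. UCHL1, a marker of spermatogonia, averaged 29.96 TPM in spermatogonia, 1.35 TPM in spermatocytes and 1.58 TPM in round spermatids, while KIT, the receptor after which the spermatogonia columns were headed, averaged 3.31, 2.72 and 8.51 TPM. ID4, also listed as a spermatogonial marker, averaged 0.509, 0.587 and 32.4 TPM, and GFRA1 0.395, 0.104 and 1.68 TPM. Of the 11 spermatogonial markers tested, 1 was higher and 8 lower in spermatocytes than in spermatogonia, at an edgeR adjusted p below 0.05. Of all genes tested 29.3% were called higher and 44.0% lower there. In round spermatids 3 of the 11 were higher and 6 lower than in spermatogonia, beside 39.5% and 39.7% of all genes. The 12 spermatogonial markers together held 172 to 173, 68.2 to 82.2 and 83.5 to 116 TPM. The summed level of 17 genes for spermatid nuclear proteins and the sperm tail was 23165 to 23450 TPM in spermatogonia, 5801 to 14231 TPM in spermatocytes and 41010 to 53227 TPM in round spermatids, with all 17 at 1 TPM or more at each stage. The summed level of 16 meiotic prophase genes was 4016 to 4143, 5604 to 6169 and 1171 to 1750 TPM. Of 10 smooth muscle markers, led by ACTA2, 9 stood at 1 TPM or more in spermatogonia, 5 in spermatocytes and 10 in round spermatids, with sums of 32.5 to 34.0, 12.8 to 19.5 and 2755 to 4327 TPM. Of 13 Sertoli cell markers, led by CLU, 6, 3 and 9 reached 1 TPM, with sums of 309 to 313, 15.4 to 24.1 and 688 to 1232 TPM, and AMH and GATA1 were listed at 0 in spermatocytes. Of 9 Leydig cell markers, led by INSL3, 9, 3 and 7 reached it, with sums of 614 to 647, 7.64 to 11.4 and 39.1 to 76.4 TPM. The 6 endothelial markers, of which 4, 3 and 6 reached 1 TPM, summed to 18.7 to 20.5, 8.88 to 17.1 and 75.7 to 131 TPM, and the 10 leukocyte markers, of which 0, 0 and 5 reached it, to 2.08 to 2.39, 1.27 to 2.73 and 19.1 to 22.3 TPM. The part of these other cells in the results was not tested. Each stage is named after its label.

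All 10 acrosome genes were abundant in the libraries labelled spermatogonia, and their levels lay closer together there than at the later labels. In spermatogonia the genes ran from 219 ± 1.93 TPM for SPACA3 to 1379 ± 20.4 TPM for ACRBP (SD, n = 3), and the highest gene stood 6.23 to 6.36 times above the lowest within a library. In CPM, which are not scaled to gene length, they lay further apart there, from 27.3 ± 0.409 for LYZL4 to 3205 ± 64.6 for ACRBP. In spermatocytes DKKL1 led with 4308 ± 884 TPM and SPACA3 was lowest with 9.54 ± 3.47 TPM, a range of 293 to 734 times within a library. In round spermatids DKKL1 led with 1439 ± 634 TPM and LYZL4 was lowest on average with 16.9 ± 7.45 TPM, a range of 28.0 to 156 times.

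The order of the genes in TPM differed between stages. In spermatogonia ACRBP was followed by ZPBP, DKKL1 and ACR, at 1138 ± 22.1, 1126 ± 11.9 and 1104 ± 14.3 TPM, whose ranges over libraries overlapped from neighbour to neighbour. SPACA4 came next at 781 ± 14.8 TPM, then ZPBP2, ACRV1, SPACA1, LYZL4 and SPACA3, with no overlap between neighbours. In spermatocytes DKKL1 was followed by ACR and ZPBP2, at 1027 ± 143 and 975 ± 19.4 TPM, which overlapped, and then by ZPBP and ACRBP, which stood apart from each other. SPACA1, ACRV1, SPACA4, LYZL4 and SPACA3 closed the order there, and each of these overlapped with its neighbour. In round spermatids DKKL1 again stood apart. ACR, ZPBP, ACRBP and ZPBP2 followed, each overlapping with the next, and the lowest 3 genes were SPACA4, SPACA3 and LYZL4, which also overlapped. SPACA4 was thus, in TPM, the fifth of the 10 in spermatogonia and the eighth at both later stages. In CPM it stood lower in the spermatogonia order, at 101 CPM behind ZPBP2 at 553 and ACRV1 at 119 CPM.

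**Figure D1:**
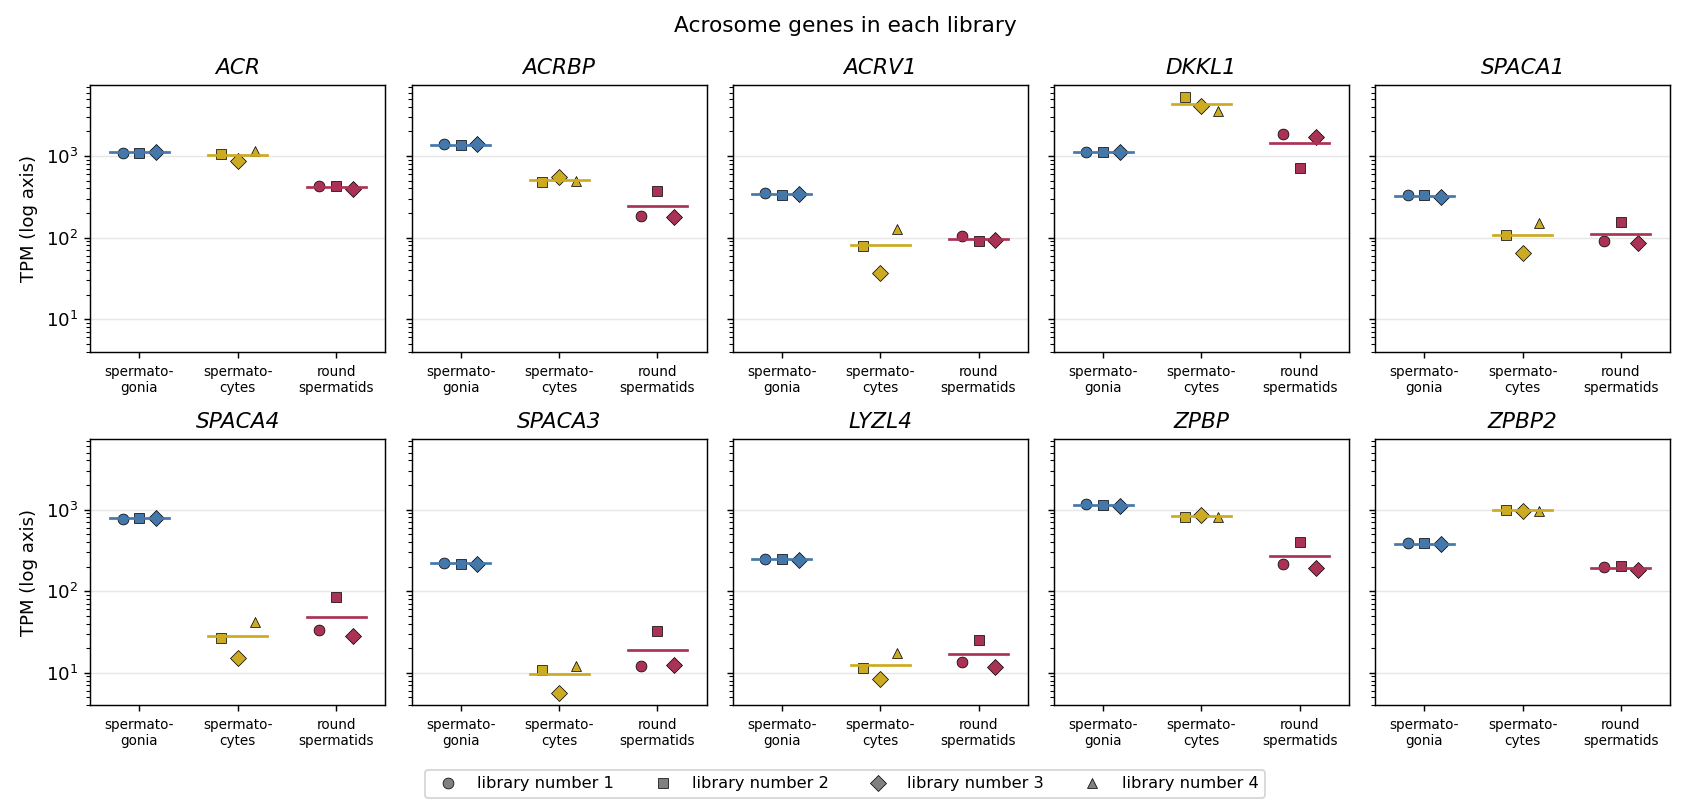
TPM of the 10 acrosome genes (log axis) in each of 9 libraries, with spermatogonia, spermatocytes and round spermatids from left to right; symbols give the library number and lines the stage mean. SPACA4, SPACA3 and LYZL4 lie far lower at both later labels than in spermatogonia, while DKKL1 and ZPBP2 peak in spermatocytes.

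As a sum, the 10 genes held 7003 to 7086 TPM in spermatogonia, 7313 to 8863 TPM in spermatocytes and 2509 to 3161 TPM in round spermatids. The stages compare differently in CPM, which are not scaled to gene length and give DKKL1 and ACRBP more weight. DKKL1 averaged 2343 CPM in spermatogonia, 12980 CPM in spermatocytes and 5054 CPM in round spermatids. Set against the summed TPM of the 17 spermatid nuclear and tail genes in the same library, a ratio that does not depend on library scaling, this was 0.301 to 0.305 in spermatogonia, 0.514 to 1.29 in spermatocytes and 0.0471 to 0.0706 in round spermatids. Set against the 16 meiotic prophase genes it was 1.69 to 1.76, 1.19 to 1.58 and 1.43 to 2.58. From the lowest to the highest of the 9 libraries, the ratio to the meiotic genes thus differed by a smaller factor than that to the spermatid genes. PRM1 was the highest gene in the spermatid sum. DKKL1 alone made up 16.0 ± 0.0785% of the acrosome sum in spermatogonia, 54.3 ± 5.53% in spermatocytes and 49.1 ± 17.9% in round spermatids (SD, n = 3). SPACA4 made up 11.08 ± 0.248%, 0.361 ± 0.191% and 1.79 ± 1.35% of it.

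Between spermatocytes and spermatogonia, the genes moved in opposite directions. DKKL1 and ZPBP2 were several-fold higher in spermatocytes, and SPACA4, SPACA3 and LYZL4 were more than 10-fold lower. In edgeR's quasi-likelihood test with Benjamini-Hochberg adjustment over all genes, called at an adjusted p below 0.05, 3 of the 10 were higher and 6 lower in spermatocytes. Of all 16802 genes tested 29.3% were called higher and 44.0% lower, or 73.4% in either direction, so these counts are near the background. In CPM the libraries of the 2 stages did not overlap for the same 3 higher and 6 lower genes, beside 31.9% and 48.1% of all genes. The median log2 fold change of the 10 was -1.002, beside -0.32 over all genes tested.

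Round spermatids against spermatocytes gave 2 of the 10 higher, where 42.7% of all genes were called higher, and 5 lower, where 36.4% were called lower (79.2% in either direction). The count of 2 was 4 without spermatocytes 4, and 1 without round spermatids 2, spermatocytes 2, spermatocytes 3 or any 1 of the spermatogonia libraries. CPM did not overlap for 1 higher and 5 lower genes, beside 42.1% and 36.1% of all genes. The median of the 10 was -0.48, beside 0.19 over all genes. Round spermatids against spermatogonia gave 1 higher, beside a background of 39.5%, and 8 lower, beside 39.7%, of 79.2% called in either direction. CPM did not overlap for 9 lower genes, beside 43.5% of all genes, and for no higher gene, beside 41.7%. The median was -1.35 against 0.00 over all genes. The count of 1 higher gene, DKKL1, was 0 without round spermatids 1, round spermatids 3 or any 1 of the spermatogonia libraries. The count of lower genes in that last comparison stayed between 7 and 9 under each alternative tried. The 3 comparisons share libraries, so their counts are not independent.

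**Figure D2:**
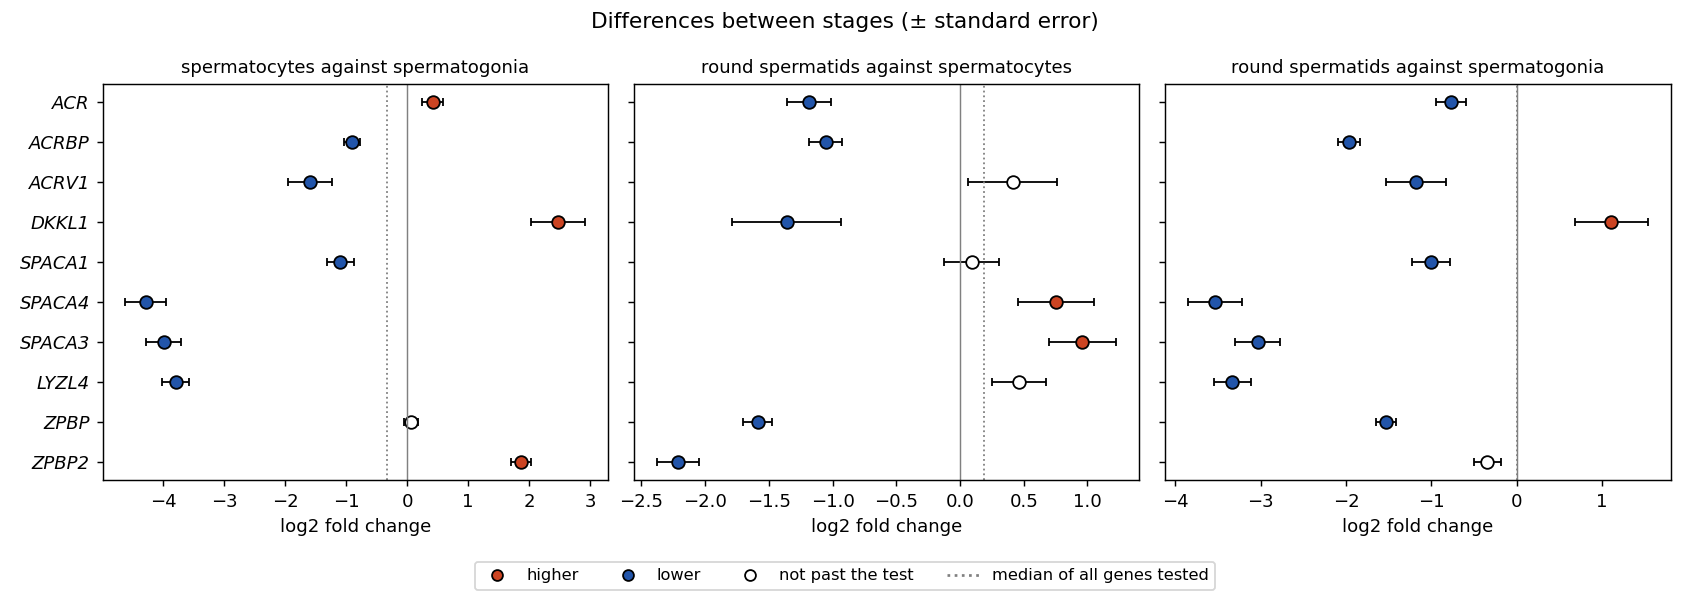
Log2 fold change (± standard error, edgeR) of each gene in the 3 comparisons, the first-named stage over the second; red is called higher, blue called lower, white did not pass, and the dotted line is the median of all genes tested. SPACA4, SPACA3 and LYZL4 lie between -4.29 and -3.03 in both comparisons with spermatogonia, and DKKL1 is to the right of 0 in both.

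ACR encodes acrosin, the serine protease that is stored in the acrosomal matrix as the inactive precursor proacrosin. It lies on chromosome 5 from 30127 to 36005 (Sscrofa11.1, RefSeq, matched by symbol; ENSSSCG00000021265), where it overlaps LOC110260601, a gene not matched in the table. It stood at 707, 693 and 710 CPM in spermatogonia 1, 2 and 3, at 1013, 817 and 988 CPM in spermatocytes 2, 3 and 4, and at 488, 298 and 455 CPM in round spermatids 1, 2 and 3. No round spermatid library reached the other stages, and the 3 spermatocyte libraries lay above the 3 spermatogonia libraries. The difference between round spermatids and spermatocytes was -1.18 ± 0.175 on the log2 scale (± SE, edgeR, adjusted p = 9.81e-05), and that between round spermatids and spermatogonia was -0.77 ± 0.173 (adjusted p = 0.00205).

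The higher level of ACR in spermatocytes than in spermatogonia did not hold up. Its log2 fold change was 0.42 ± 0.173 (edgeR, adjusted p = 0.0494), and with no normalization factors it was 0.00 (adjusted p = 0.995). In TPM the libraries overlapped, with 1063, 869 and 1149 TPM in spermatocytes against 1099, 1092 and 1120 TPM in spermatogonia, and limma on log2(TPM + 1) gave -0.11 (adjusted p = 0.517). The call was kept in 9 of 21 alternatives, with edgeR or limma adjusted p from 0.000689 to 0.995. It was lost without each spermatogonia library in turn (edgeR, adjusted p = 0.106 to 0.117), and without spermatocytes 2 (0.137), spermatocytes 4 (0.111) or round spermatids 3 (0.0601).

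ACRBP encodes the protein that binds proacrosin and, in mice, governs its packaging and activation. The gene lies on chromosome 5 from 64036810 to 64047846 (ENSSSCG00000000700). It stood at 3267, 3138 and 3210 CPM in spermatogonia, 1672, 1903 and 1547 CPM in spermatocytes and 769, 949 and 749 CPM in round spermatids. The stages did not overlap, and the level stepped down from each label to the next. Spermatocytes were 1.88-fold lower than spermatogonia (edgeR, adjusted p = 0.000107), round spermatids 2.08-fold lower than spermatocytes (adjusted p = 2.25e-05) and 3.897-fold lower than spermatogonia (adjusted p = 3.31e-07).

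Zymogen and binding protein thus changed in ratio, as measured within each library and free of library scaling. ACR over ACRBP in TPM was 0.789, 0.806 and 0.807 in spermatogonia, 2.21, 1.57 and 2.33 in spermatocytes, and 2.31, 1.14 and 2.22 in round spermatids. In TPM ACRBP exceeded ACR in each spermatogonia library, and ACR exceeded ACRBP in each library of the later stages. In CPM, which are not scaled to gene length, ACRBP exceeded ACR in each library of all stages. The ratio was 2.504-fold higher in spermatocytes than in spermatogonia, without overlap. An exact permutation test of 3 libraries against 3 cannot go below a two-sided p of 0.1, which this difference reached (0.136 adjusted over the 15 ratio tests made). Between round spermatids and spermatocytes the libraries overlapped (exact permutation test, two-sided p = 0.7, 0.7 adjusted).

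ACRV1 encodes SP-10, a protein of the acrosomal vesicle, and lies on chromosome 9 from 52803378 to 52809975 (ENSSSCG00000015216). Its values were 122, 117 and 119 CPM in spermatogonia, 40.5, 18.9 and 59.1 CPM in spermatocytes and 65.2, 34.2 and 58.6 CPM in round spermatids. The spermatogonia libraries stood above the rest, and spermatocytes and round spermatids overlapped. ACRV1 was 3.02-fold lower in spermatocytes than in spermatogonia (edgeR, adjusted p = 0.00226) and 2.27-fold lower in round spermatids than in spermatogonia (adjusted p = 0.0104). The second of these calls was lost with the spermatogonia libraries summed (-1.26, adjusted p = 0.059). Round spermatids against spermatocytes gave 0.41 ± 0.350 on the log2 scale (edgeR, adjusted p = 0.295), which passed without spermatocytes 4 (0.82, adjusted p = 0.0493).

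DKKL1, called soggy in mice, encodes a secreted glycoprotein of the acrosome related to the Dickkopf family of WNT antagonists. It lies on chromosome 6 from 54462367 to 54468363 (ENSSSCG00000038579), and 42 bases separate it from TEAD2, which stood at 10.7 to 20.3 TPM in all 9 libraries. DKKL1 stood at 2382, 2306 and 2342 CPM in spermatogonia, 16409, 12575 and 9957 CPM in spermatocytes and 6978, 1628 and 6556 CPM in round spermatids. In spermatocytes 2 its reads made up 1.35% of all counts. Spermatocytes stood above both other stages in each library, while round spermatids 2 fell below all spermatogonia libraries and the other two round spermatid libraries lay above them. DKKL1 was 5.54-fold higher in spermatocytes than in spermatogonia (edgeR, adjusted p = 0.000564), a larger log2 change than in 97.4% of all genes tested.

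In round spermatids DKKL1 was 2.57-fold lower than in spermatocytes (edgeR, adjusted p = 0.0136), a call lost without spermatocytes 2 (-1.16, adjusted p = 0.0526). Against spermatogonia it was 2.16-fold higher in round spermatids (edgeR, adjusted p = 0.0343), but this call was kept in 10 of 21 alternatives, with adjusted p from 2.98e-05 to 0.531. It was lost without round spermatids 1 (0.133), round spermatids 3 (0.121) and each spermatogonia library in turn (0.0766 to 0.0812). Without round spermatids 2 the log2 fold change was 1.53. On log2(TPM + 1) it was 0.23 (limma, adjusted p = 0.531).

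DKKL1 over ACRV1 in TPM gave the widest contrast of the 5 pairs. It was 3.26 to 3.303 in the 3 libraries of spermatogonia, 67.8, 111 and 28.1 in spermatocytes and 17.9, 7.95 and 18.7 in round spermatids. No 2 stages overlapped, and spermatocytes stood 18.2-fold above spermatogonia (exact permutation test, two-sided p = 0.1, the smallest possible, 0.136 adjusted).

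SPACA1 encodes a protein of the inner acrosomal membrane whose loss in mice deforms the sperm head, and lies on chromosome 1 from 56378300 to 56395497 (ENSSSCG00000004308). It stood at 83.0, 83.6 and 78.8 CPM in spermatogonia, 39.8, 23.9 and 51.1 CPM in spermatocytes and 40.8, 42.5 and 39.0 CPM in round spermatids. Spermatogonia stood apart, and the later stages overlapped. Spermatocytes were 2.14-fold lower than spermatogonia (edgeR, adjusted p = 0.00111) and round spermatids 2.01-fold lower (adjusted p = 0.00161). Round spermatids against spermatocytes gave 0.09 ± 0.218 (edgeR, adjusted p = 0.71), and 5 of 21 alternatives turned its sign, none of them past the test.

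SPACA4 encodes a small glycolipid-anchored protein of the sperm membrane that is needed in mice for passing the zona pellucida. It lies on chromosome 6 from 53968485 to 53968865 (ENSSSCG00000025441), inside the span of FAM83E. Whether the counting used strand is not stated, so reads of both genes cannot be told apart with certainty. FAM83E stood at 2.58 to 2.92 TPM in spermatogonia, 0.236 to 0.459 TPM in spermatocytes and 0.387 to 0.712 TPM in round spermatids, and was thus highest in spermatogonia like SPACA4. SPACA4 stood at 100, 101 and 103 CPM in spermatogonia, 5.21, 2.95 and 7.33 CPM in spermatocytes and 7.67, 11.9 and 6.61 CPM in round spermatids. Each spermatogonia library lay far above the rest, and the later stages overlapped. The log2 fold change was -4.29 ± 0.330 for spermatocytes against spermatogonia (edgeR, adjusted p = 2.3e-06) and -3.53 ± 0.316 for round spermatids against spermatogonia (adjusted p = 2.45e-06), and 1.26% and 0.994% of all genes had a lower value. Round spermatids were 1.69-fold higher than spermatocytes (edgeR, adjusted p = 0.0385), a call kept in 8 of 21 alternatives (adjusted p from 0.00274 to 0.168). It was lost without round spermatids 2 (0.168), spermatocytes 2 (0.0892), spermatocytes 3 (0.11) and each spermatogonia library in turn (0.0542 to 0.0545).

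The 2 membrane proteins changed places between labels. SPACA1 over SPACA4 in TPM was 0.430, 0.429 and 0.399 in spermatogonia, 3.96, 4.22 and 3.62 in spermatocytes and 2.77, 1.85 and 3.06 in round spermatids. SPACA4 exceeded SPACA1 in each spermatogonia library and SPACA1 exceeded SPACA4 in each other library. The ratio was 9.36-fold higher in spermatocytes than in spermatogonia and 5.97-fold higher in round spermatids than in spermatogonia (exact permutation tests, two-sided p = 0.1 each, the smallest possible, 0.136 adjusted).

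SPACA3 and LYZL4 encode lysozyme-like proteins of the acrosome, relatives of the enzymes that cut bacterial cell walls. SPACA3 lies on chromosome 12 from 42046804 to 42050684 (ENSSSCG00000017726) and LYZL4 on chromosome 13 from 25987662 to 25992607 (ENSSSCG00000011279). SPACA3 stood at 34.7, 33.7 and 33.8 CPM in spermatogonia, 2.55, 1.29 and 2.54 CPM in spermatocytes and 3.35, 5.56 and 3.57 CPM in round spermatids. The stages did not overlap, with spermatocytes lowest. LYZL4 stood at 27.7, 27.3 and 26.9 CPM in spermatogonia, 1.88, 1.38 and 2.62 CPM in spermatocytes and 2.67, 3.09 and 2.37 CPM in round spermatids, where the later stages overlapped.

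Spermatocytes held 16.0-fold less SPACA3 and 13.9-fold less LYZL4 than spermatogonia (edgeR, adjusted p = 1.48e-06 and 7.06e-07). Round spermatids held 8.19-fold less SPACA3 and 10.1-fold less LYZL4 than spermatogonia (edgeR, adjusted p = 1.99e-06 and 2.37e-07). Between the later stages SPACA3 was 1.95-fold higher in round spermatids than in spermatocytes (edgeR, adjusted p = 0.0066), a call lost on log2(TPM + 1) (limma, adjusted p = 0.0563). LYZL4 gave 0.46 ± 0.212 there (edgeR, adjusted p = 0.0661) and passed in 4 of 21 alternatives, among them without spermatocytes 4 (adjusted p = 0.00389).

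The pair kept a steadier ratio than the other pairs. SPACA3 over LYZL4 in TPM was 0.891, 0.879 and 0.893 in spermatogonia, 0.961, 0.661 and 0.688 in spermatocytes and 0.888, 1.28 and 1.07 in round spermatids. These ranges overlapped in all 3 comparisons (exact permutation tests, two-sided p = 0.2 to 0.4, 0.25 to 0.429 adjusted), and the largest difference between stages was 1.41-fold.

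ZPBP and ZPBP2 encode paralogous proteins of the acrosomal matrix that bind the zona pellucida and, in mice, act in compacting the acrosome. ZPBP lies on chromosome 9 from 136105129 to 136186744 (ENSSSCG00000015627) and ZPBP2 on chromosome 12 from 22454974 to 22462918 (ENSSSCG00000017493). ZPBP stood at 426, 411 and 405 CPM in spermatogonia, 440, 455 and 398 CPM in spermatocytes and 139, 162 and 129 CPM in round spermatids. Spermatocytes and spermatogonia overlapped in CPM, and round spermatids were lower in each library. ZPBP2 stood at 560, 554 and 546 CPM in spermatogonia, 2150, 2058 and 1870 CPM in spermatocytes and 503, 324 and 482 CPM in round spermatids. Its spermatocyte libraries stood far above both other stages.

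ZPBP2 was 3.66-fold higher in spermatocytes than in spermatogonia (edgeR, adjusted p = 4.41e-06) and 4.65-fold lower in round spermatids than in spermatocytes (adjusted p = 4.66e-07). ZPBP was 3.01-fold lower in round spermatids than in spermatocytes (edgeR, adjusted p = 3.64e-07) and 2.89-fold lower than in spermatogonia (adjusted p = 6.48e-07). For ZPBP in spermatocytes against spermatogonia the log2 value was 0.06 ± 0.111 (edgeR, adjusted p = 0.649). Its sign depended on the scaling, at -0.37 with no normalization factors (adjusted p = 0.04), and it passed upward with only these 2 stages fitted (0.26, adjusted p = 0.00878). Over the 21 alternatives the value ran from -0.467 to 0.302. ZPBP2 in round spermatids against spermatogonia gave -0.34 ± 0.157 (edgeR, adjusted p = 0.0657) and passed as lower in 5 of 21 alternatives, among them log2(TPM + 1) with -0.98 (limma, adjusted p = 3.37e-05) and without round spermatids 1 (-0.46, edgeR, adjusted p = 0.0323).

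Within libraries ZPBP2 over ZPBP in TPM was 0.331, 0.340 and 0.340 in spermatogonia, 1.23, 1.14 and 1.18 in spermatocytes and 0.912, 0.504 and 0.943 in round spermatids. In TPM ZPBP2 exceeded its paralog in the 3 spermatocyte libraries and in none of the other 6. In CPM, which are not scaled to gene length, ZPBP2 exceeded ZPBP in each library. The ratio was 3.51-fold higher in spermatocytes and 2.24-fold higher in round spermatids than in spermatogonia, and 1.57-fold lower in round spermatids than in spermatocytes, with no overlap in any of these comparisons (exact permutation tests, two-sided p = 0.1 each, the smallest possible, 0.136 adjusted).

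**Figure D3:**
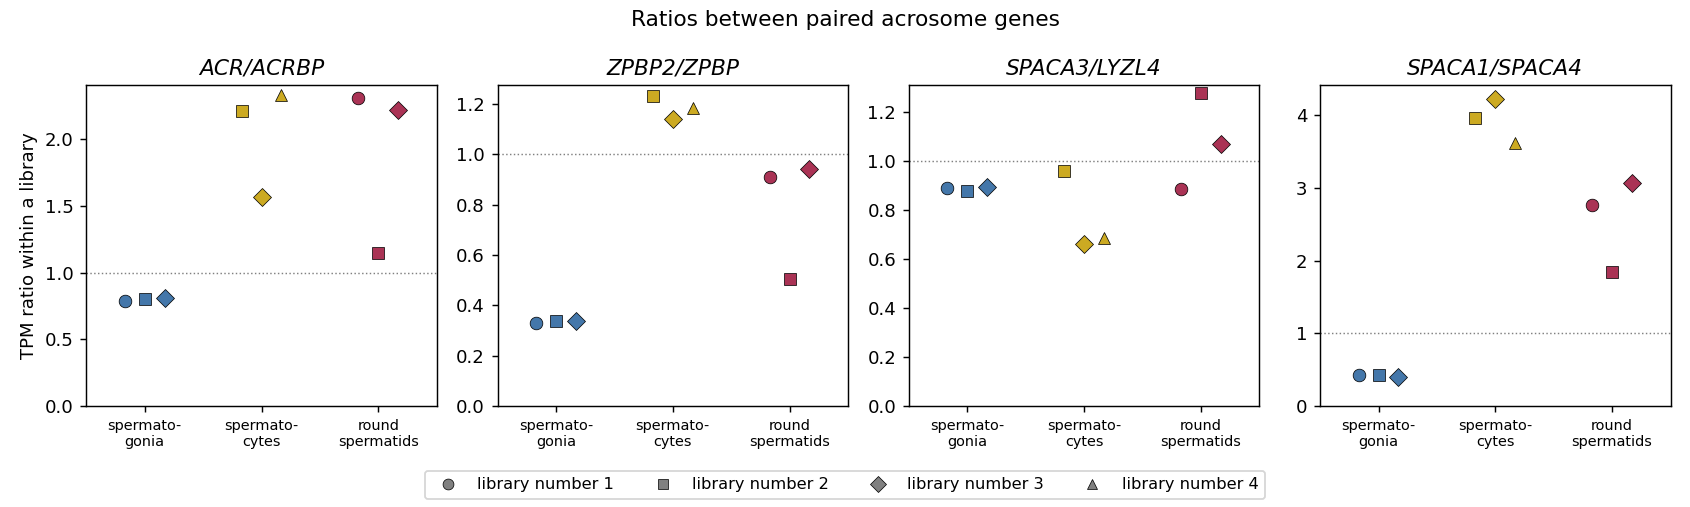
Ratio of TPM between paired genes within each library, linear axis from 0, with spermatogonia, spermatocytes and round spermatids from left to right and a dotted line at a ratio of 1. ACR/ACRBP and SPACA1/SPACA4 lie below 1 in spermatogonia and above 1 elsewhere, ZPBP2/ZPBP is above 1 in spermatocytes, and SPACA3/LYZL4 overlaps between stages. In CPM, which are not scaled to gene length, ACR/ACRBP was below 1 and ZPBP2/ZPBP above 1 in each library.

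The spread between replicate libraries differed by stage and gene. In spermatogonia the coefficient of variation of CPM was 1.19 to 3.20% over the 10 genes. In spermatocytes it was 32.0 to 50.9% for LYZL4, SPACA3, SPACA1, SPACA4 and ACRV1, 25.0% for DKKL1 and 6.82 to 11.3% for ZPBP, ZPBP2, ACRBP and ACR. In round spermatids it ran from 4.32% for SPACA1 to 58.9% for DKKL1. Spermatocytes 3 held the least of those first 5 genes. Relative to the mean TPM of the other 2 spermatocyte libraries it stood at 0.362 for ACRV1, 0.446 for SPACA4, 0.485 for SPACA3, 0.502 for SPACA1 and 0.583 for LYZL4. The same ratio was 0.786 for ACR, 0.929 for DKKL1, 0.988 for ZPBP2, 1.05 for ZPBP and 1.14 for ACRBP. In CPM those first 5 genes stood at 0.381 to 0.611. For the summed spermatid nuclear and tail genes the ratio was 0.423 in TPM and 0.771 in CPM. The scales weigh these genes differently. In spermatocytes PRM1 averaged 5332 TPM and 518 ± 275 CPM, and ODF2 1051 TPM and 2844 ± 134 CPM. For the summed meiotic prophase genes the ratio was 1.04 in TPM and 1.16 in CPM. The part of spermatid transcripts in these libraries was not tested.

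Round spermatids 2 also stood apart. Relative to the mean TPM of the other 2 round spermatid libraries it held 0.396 of DKKL1, but 2.75 of SPACA4, 2.65 of SPACA3, 2.06 of ACRBP, 2.01 of LYZL4, 1.99 of ZPBP and 1.75 of SPACA1. ACR, ZPBP2 and ACRV1 stood at 1.04, 1.08 and 0.909. The summed smooth muscle markers stood at 1.54 in that library and the meiotic prophase genes at 1.46, but at 0.835 and 0.879 in CPM, so their direction turned with the scale. The part of either was not tested. On the CPM scale the values of round spermatids 2 were lower for each acrosome gene, such as 0.632 for ACR and 1.25 for ACRBP. That library had the highest normalization factor (1.26). For a single gene the length that TPM divide by is the same in each library, so the 2 scales differ here by library-wide factors. What sets these factors apart was not tested.

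**Figure D4:**
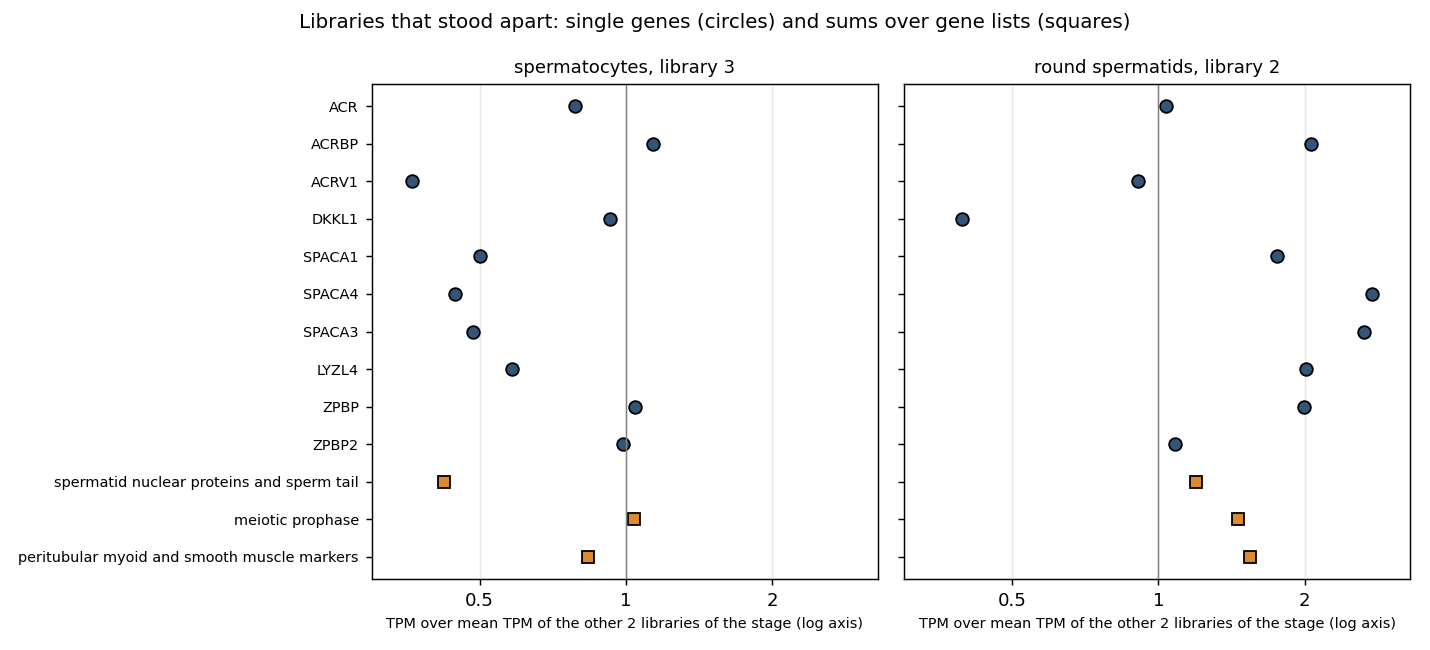
TPM of spermatocytes 3 (left) and round spermatids 2 (right) relative to the mean of the other 2 libraries of the stage, on a log axis; circles are single acrosome genes and squares are sums over gene lists. In spermatocytes 3 the genes ACRV1, SPACA1, SPACA4, SPACA3 and LYZL4 lie between 0.362 and 0.583. The spermatid list lies there at 0.423 on this scale (0.771 in CPM, which gives other genes of the list more weight). In round spermatids 2 DKKL1 lies lowest, at 0.396.

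The genes with the most similar profile were found for each of the 10 by the mean absolute distance of centred log2(TPM + 1) over the 9 libraries, among 13735 other genes. The libraries of a stage are shared by all genes, so these are descriptions. SPACA3 was nearest to LYZL4 (distance 0.182, r = 0.992), and SPACA4 to SPACA3 and LYZL4 (0.262 and 0.271, r = 0.997 for both), the members whose nearest genes were other members. LYZL4 was nearest to ABCG2A (0.138, r = 0.995) and then to SPACA3. ACRBP lay nearest to TOM1, TRAPPC14 and the spermatid transcription factor gene RFX2 (0.0306 to 0.0519), and ZPBP to ADAD1, CAP1 and WDR93 (0.0389 to 0.0536). ACR lay nearest to ZNF200, SDCCAG8 and SHARPIN, ZPBP2 to DDX50, CEP63 and HIRIP3, and DKKL1, more loosely, to CCDC34, CCNK and CIR1 (0.143 to 0.189). ACRV1 was nearest to LY6G6C, to the lysozyme-like gene LYZL6 and to FAM221B (0.102 to 0.139), and SPACA1 to IZUMO3, C2orf88 and EFHC2 (0.0765 to 0.0962). For ACR the closest other member, ZPBP, ranked only 2126 among all genes.

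Other acrosome genes came from 3 lists with 55 of 68 symbols found. Of 10 found genes for proteases, inhibitors and hydrolases, 1 was higher and 6 lower in spermatocytes than in spermatogonia, where 29.3% of all genes were called higher and 44.0% lower, with a median log2 fold change of -0.64 beside -0.32 over all genes. SPAM1, the sperm hyaluronidase, stood at 14.6 ± 5.31 CPM in spermatocytes against 40.7 ± 0.578 CPM in spermatogonia, and the serine protease gene PRSS21 at 11.8 ± 1.18 against 26.1 ± 0.881 CPM. PSAP, a lysosomal protein precursor, was the called gene that was higher (0.41, edgeR, adjusted p = 0.0341). PSAP kept its call in 12 of 21 alternatives, turned its sign in 3, with no normalization factors and on both TPM scales (lowest log2 value -0.14), and lost the call without spermatocytes 2, spermatocytes 3 or any 1 of the spermatogonia libraries (edgeR or limma, highest adjusted p = 0.93). Of 18 found genes for other matrix and membrane proteins, 3 were higher and 10 lower, with a median of -1.14. CALR3, a testis chaperone, rose 2.56-fold and SPESP1, of the equatorial segment, 1.93-fold, while IZUMO2 was 8.60-fold lower and SPATA46 6.91-fold lower. Of 27 found genes for acrosome biogenesis and anchoring, 13 were higher and 9 lower, with a median of 0.23. GOPC, a Golgi protein needed for acrosome formation in mice, was 3.93-fold higher and the calyx gene CYLC2 2.99-fold higher, whereas ACTL7A and HIPK4 were 5.34-fold and 5.01-fold lower. CYLC2 lost its call without spermatocytes 4 and in 4 other alternatives (highest adjusted p = 0.146), and SPESP1 on log2(TPM + 1) (limma, adjusted p = 0.053).

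Round spermatids against spermatocytes gave 4 higher and 5 lower of the 10 protease and hydrolase genes (median -0.53), 3 and 9 of the 18 matrix and membrane genes (-0.27) and 10 and 13 of the 27 biogenesis genes (0.12), beside 42.7% of all genes higher, 36.4% lower and a median of 0.19. CTSH, which encodes a lysosomal protease made in many cell types, stood at 27.3 ± 0.805 CPM in round spermatids against 0.338 ± 0.339 CPM in spermatocytes. The summed smooth muscle, Sertoli, Leydig, endothelial and leukocyte markers given above were also each higher in round spermatids than in spermatocytes. The part of these cells in the CTSH value was not tested. TMPRSS12 and ASRGL1 were 4.64-fold and 2.92-fold lower. CABS1 was 3.33-fold higher and FAM170B 1.47-fold higher, while ZAN, whose product zonadhesin binds the zona pellucida, was 7.62-fold lower and TEX101, of the germ cell surface, 2.81-fold lower. Among biogenesis genes ACTRT1 and GARIN1A were 4.39-fold and 3.77-fold higher, and DPY19L2, which anchors the acrosome to the nucleus, was 4.82-fold lower together with GOPC (4.47-fold). The call of FAM170B was lost in 7 of 21 alternatives, among them without round spermatids 3 (highest adjusted p = 0.0986).

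Against spermatogonia, round spermatids gave 4 higher and 6 lower of the 10 protease and hydrolase genes (median -1.35), 1 and 15 of the 18 matrix and membrane genes (-1.19) and 9 and 10 of the 27 biogenesis genes (-0.01), beside 39.5% of all genes higher, 39.7% lower and a median of 0.00. SPAM1 stood at 7.84 ± 1.68 CPM in round spermatids against 40.7 ± 0.578 CPM in spermatogonia, and TMPRSS12 at 4.30 ± 0.389 against 18.8 ± 0.653 CPM. CTSH was 7.89-fold higher. TEX101 was 13.8-fold lower and ZAN 6.83-fold lower, while CABS1 was 2.70-fold higher, the called gene of its list in that direction, a call lost in 3 of 21 alternatives (highest adjusted p = 0.0815). CYLC2 and CYLC1, of the calyx under the acrosome, were 5.98-fold and 4.83-fold higher, and SMAP2 and DPY19L2 were 4.16-fold and 3.64-fold lower.

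**Figure D5:**
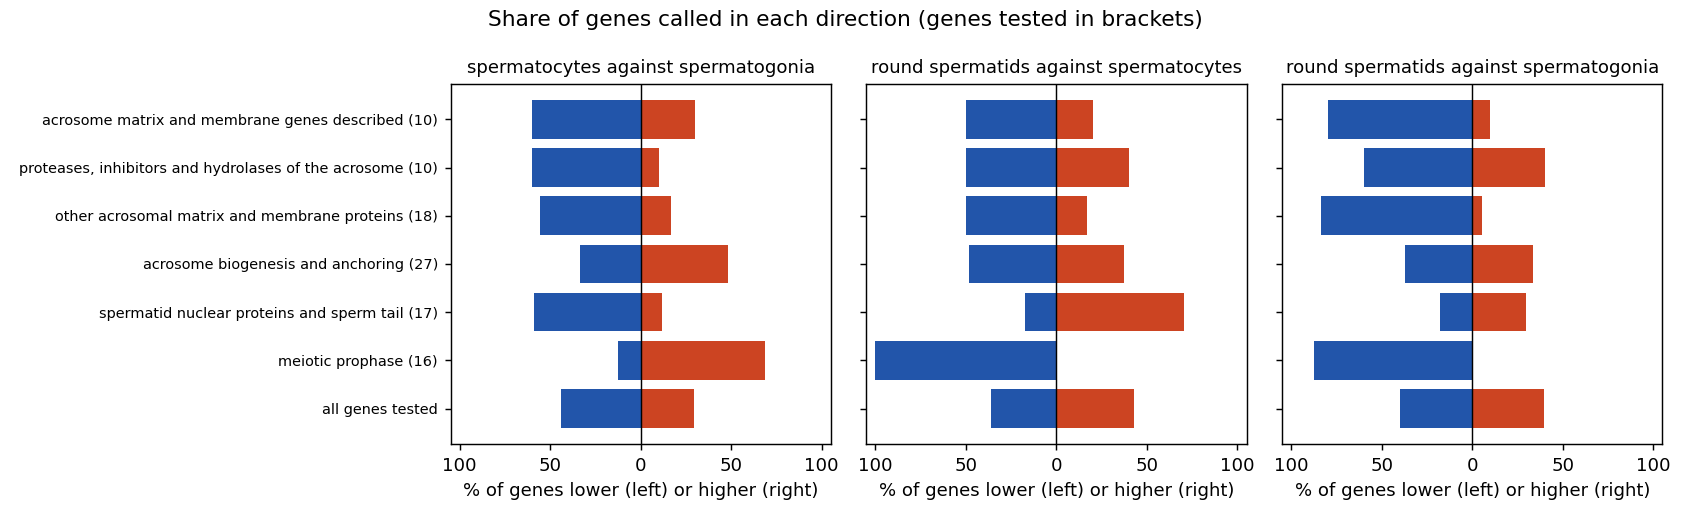
Percent of the genes tested that were called higher (red, right) or lower (blue, left) in each comparison, for the 10 acrosome genes, 3 further acrosome lists, 2 stage lists and all genes tested. Matrix and membrane lists lean to the left in round spermatids against spermatogonia, with 8 of 10 and 15 of 18 genes lower, beside 39.7% of all genes. Spermatid nuclear and tail genes lean to the right against spermatocytes, with 12 of 17 higher, beside 42.7% of all genes. In round spermatids against spermatogonia 5 of these 17 were higher, 3 lower and 9 did not pass, where 39.5% of all genes were higher.

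Transcription regulators of spermatocyte and spermatid genes, of which 9 were tested, differed from one another. MYBL1, a regulator of meiotic genes, stood at 338 ± 20.5 CPM in spermatocytes against 55.5 ± 2.47 CPM in spermatogonia (edgeR, adjusted p = 8.37e-07), and at 27.8 ± 6.05 CPM in round spermatids. RFX2 stood at 1086 ± 14.1 CPM in spermatogonia, 531 ± 48.9 CPM in spermatocytes and 276 ± 50.1 CPM in round spermatids, lower in spermatocytes than in spermatogonia (edgeR, adjusted p = 6.9e-05) and in round spermatids than in spermatocytes (adjusted p = 8.2e-05). SOX30, GTF2A1L, TCFL5 and TBPL1 were 1.97-fold, 2.94-fold, 1.69-fold and 1.40-fold higher in spermatocytes than in spermatogonia. The first 3 were lower in round spermatids than in spermatocytes by 3.16-fold, 3.19-fold and 3.81-fold, and TBPL1 by 1.94-fold. SOX5 was 1.76-fold lower in spermatocytes than in spermatogonia and 2.23-fold lower in round spermatids than in spermatocytes. TAF7L was 1.78-fold lower in spermatocytes than in spermatogonia and 1.72-fold higher in round spermatids than in spermatocytes. FHL5, a partner of the regulator CREM, was 2.97-fold higher in round spermatids than in spermatocytes and 1.92-fold higher than in spermatogonia. FHL5 kept that last call in 13 of 21 alternatives and lost it without round spermatids 1, round spermatids 2 or any 1 of the spermatogonia libraries (highest adjusted p = 0.508). TBPL1 in spermatocytes against spermatogonia turned its sign in 2 alternatives (lowest log2 value -0.04), and TCFL5 lost its call there on both TPM scales (limma, highest adjusted p = 0.22). TAF7L lost its call there in 2 alternatives (highest adjusted p = 0.0724), and its higher level in round spermatids than in spermatocytes was not called without spermatocytes 2 (edgeR, adjusted p = 0.0543).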

How the data were processed

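Per the labels' protocols, total RNA went through a strand-keeping (directional) kit and paired sequencing on an Illumina HiSeq. The submitters' processing notes name Sscrofa11.1 and bcl2fastq. Not given in the sources used here: aligner, quantifier, annotation and use of strand. The authors deposited estimated counts and TPM per gene, which match up to a factor per gene and per library (largest log deviation 1.41e-14 over 15864 genes). TPM columns fall 3.19 to 11.8% short of the unit's full sum, most in round spermatids. Columns were matched to samples by heading and number: those of spermatogonia are headed with the KIT receptor and those of spermatocytes with pachytene, a match that rests on the meaning of these names. The other 6 library columns were not used.

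Symbols were found for 14749 identifiers. Positions come from RefSeq. Estimated counts were rounded, filtered with filterByExpr, scaled with TMM (factors 0.774 to 1.26) and fitted over all 9 libraries with edgeR 4.0.16 in R 4.3.3 (glmQLFit, glmQLFTest). CPM is scaled to library total times factor. The SE is the log2 fold change over the square root of F. limma 3.58.1 and DESeq2 1.42.0 served as alternatives. Python 3.11.15, pandas 2.3.3, scipy 1.17.1 and matplotlib 3.10.9 made tables, permutation tests and plots. The fit was tested on simulated data with known changes. Only a small share of genes was changed there, up and down alike. This test therefore cannot speak for the scaling in the real data, where most genes were called.

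The members, lists and tests were chosen with earlier results of these data known. All members are named. Pathway genes named are up to 2 rises and 2 falls per list and comparison whose higher stage averaged at least 10 CPM, and all regulators found; 1 gene that the rule names is not reported here. The nearest 3 genes are named per member. Depth limits precision most for SPACA3, LYZL4 and SPACA4, which averaged under 10 CPM in both later stages.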

Additional observations from a re-analysis of the deposited data

How the results depend on the processing

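Each of the 30 values (10 genes in 3 comparisons) was recomputed under 21 alternatives, of which 9 left out a library. Of these 630 values 579 kept their direction and side of the threshold, or stayed uncalled, 37 lost the call, 11 gained one and 3 were reversed, and 20 of the 30 kept theirs throughout. The reversed values were ACR in spermatocytes against spermatogonia on log2(TPM + 1) and log2(TPM + 0.1), at -0.113 each, and ZPBP there with no normalization factors, at -0.365. The cause was not tested. The count of higher genes among the 10 in round spermatids against spermatocytes was 2, and 1 with RLE size factors, without the 50 most abundant genes, without a filter, on log2(TPM + 0.1), with only the compared stages fitted and with spermatogonia summed, and 0 on log2(TPM + 1) in limma. In round spermatids against spermatogonia it was 1, and 0 with limma-voom, on both TPM scales, with only the compared stages fitted, with spermatogonia summed and with the replicate block. Leaving out single libraries gave 2 to 3 higher and 6 lower genes of the 10 in spermatocytes against spermatogonia, 1 to 4 and 4 to 5 in round spermatids against spermatocytes, and 0 to 1 and 8 to 9 in round spermatids against spermatogonia. Among all genes the count higher in spermatocytes than in spermatogonia was 4930, and 2604 on log2(TPM + 1), 2633 on log2(TPM + 0.1) and 3229 with spermatogonia summed. Higher genes made up 40.0% of calls there, against 26.8% with no normalization factors, 23.4% on log2(TPM + 1) and 22.6% on log2(TPM + 0.1). The split moved from 54.0 to 65.7% in round spermatids against spermatocytes with no normalization factors, and from 49.9 to 34.9% and 34.7% in round spermatids against spermatogonia on the TPM scales. The median log2 fold change of all genes over the alternatives ran from -0.74 to -0.08 in spermatocytes against spermatogonia, -0.01 to 0.64 in round spermatids against spermatocytes and -0.58 to 0.07 in round spermatids against spermatogonia. Libraries with the same number did not deviate together (r of deviations -0.0483 to 0.0283). Whether they came from the same animal is not given. These correlations cannot settle it, since the spread between libraries could hide a small shared effect. With the replicate number as a block ACR in spermatocytes against spermatogonia lost its call (0.449, edgeR, adjusted p = 0.105). Under the same block DKKL1 in round spermatids against spermatogonia lost its call (0.966, adjusted p = 0.0894), and LYZL4 in round spermatids against spermatocytes gained one (0.735, adjusted p = 0.00593). Shares of the acrosome sum in CPM in place of TPM differed by more than the replicate SD in 29 of 30 cases, since CPM does not divide by length. Of 58 called values of the pathway genes and regulators that the naming rule picks, 47 kept their call under the same 21 alternatives, a check added after seeing the data.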

Other observations

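The 10 genes differed in the length by which the deposited TPM divide, taken as counts per TPM. With 16725 genes split by this length into 5 groups of 3345, LYZL4, SPACA4, SPACA3, SPACA1, ACRV1, ZPBP and ACR lay in group 1, the shortest, ZPBP2 in group 3, DKKL1 in group 4 and ACRBP in group 5. Over all genes the median log2 fold change from group 1 to group 5 was -0.30, -0.20, -0.21, -0.33 and -0.53 for spermatocytes against spermatogonia, and -0.07, -0.08, 0.04, 0.19 and -0.03 for round spermatids against spermatogonia. Only 2.30%, 2.93% and 1.85% of these genes were shorter than SPACA4, SPACA3 and LYZL4, so the median of group 1 says little about them. SPACA4, SPACA3 and LYZL4 lay between -4.29 and -3.03 in both comparisons, and the part of length in this was not tested.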
